A study of Mus musculus with 23 samples.

Results

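Cell cycle and DNA replication genes were examined in a mouse pancreatic β-cell line lacking either of the core circadian activators. A list of 40 gene symbols defined the set: the G1 cyclins and their kinases, the CDK inhibitors with the pocket proteins and E2F factors, the licensing and fork genes, the S, G2 and M cyclins with CDK1 and its regulators, the mitotic kinases and checkpoint genes, and 2 proliferation markers. Of these, 39 were among the 20599 genes of the expression table, and 38 passed the filter on low values, a TPM (a transcript level scaled for gene length and library) of at least 1 in at least 3 libraries. *Ccnd1* was not analysed here, and *Cdk6*, a G1 kinase, was listed at 0 in every *Bmal1*-/- library and at no more than 0.25 TPM in any other.

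The cells were β-TC6, an insulinoma line from mice in which the insulin promoter drives the SV40 T antigen, a protein that binds the RB family and p53. Poly(A) RNA was sequenced from 3 wells each of *Bmal1*-/- cells, *Clock*-/- cells and the unedited WT parent, all untreated. Each knockout was a single clone carrying a CRISPR-Cas9 deletion of coding exons, so differences between clones that have nothing to do with the deleted gene cannot be told apart from its loss, and p-values measure the spread between wells only. THRAP3, a regulator of transcription and splicing, was mapped by ChIP-seq in 2 immunoprecipitations each from *Bmal1*-/- and WT cells. Whole-gene levels did not check the deletions, which remove part of each transcript: *Arntl*, the gene of BMAL1, was at 3.32 to 3.52 TPM in *Bmal1*-/-, 10.6 to 16.2 in *Clock*-/- and 3.52 to 4.22 in WT libraries, and *Clock* was at 30.9 to 36.5 TPM in *Bmal1*-/-, 28.0 to 46.6 in *Clock*-/- and 40.9 to 49.7 in WT libraries.

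All 7 β-cell markers listed were expressed, with a summed level of 40700 to 44300 TPM in *Bmal1*-/-, 31700 to 38600 in *Clock*-/- and 55700 to 58400 in WT libraries. That sum is mostly *Ins2* and *Iapp*, and single markers differed from it: *Nkx6-1* rose in both knockouts (log2 fold change 1.29 in *Bmal1*-/- and 0.93 in *Clock*-/- cells), whereas in *Clock*-/- cells *Ins1* fell by 5.22 and the glucose transporter gene *Slc2a2* by 3.83. Markers of other islet endocrine cells summed to 67.6 to 76.5 TPM in *Bmal1*-/-, 1500 to 1670 in *Clock*-/- and 557 to 576 in WT libraries, mostly glucagon. *Cd68*, a macrophage gene, averaged 1.24 TPM in *Bmal1*-/-, 21.7 in *Clock*-/- and 9.1 in WT libraries. *Ptprc*, the other blood marker listed, was at 0.125 TPM or less in every library. The acinar gene *Cela1* averaged 1.69 in *Bmal1*-/-, 2.2 in *Clock*-/- and 8.04 in WT libraries. Whether these marker differences bear on the results below was not tested. Duct, endothelial and stromal markers stayed at a summed 0.59 TPM or less in every library. Not all listed markers were in the expression table, which held 1 of 3 acinar, 1 of 2 duct and 2 of 3 stromal genes. Genes listed at 0 numbered 2189 to 2691 in *Bmal1*-/-, 791 to 1010 in *Clock*-/- and 687 to 905 in WT libraries. Among the replicates, *Clock*-/- replicate 2 had the lowest value of its genotype for 29 of the 38 members, as it did for 62.4% of all genes tested, and WT replicate 3 had the lowest for 26.

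Progression through the cell cycle is driven by cyclins that switch on cyclin-dependent kinases. D-type cyclins with CDK4 or CDK6, then cyclin E with CDK2, phosphorylate the pocket proteins of the RB family and free E2F factors, which switch on the genes of DNA replication. The late genes of G2 and mitosis are read from promoters that carry CCAAT boxes, bound by NF-Y, and a cell cycle homology region (CHR), bound by MuvB complexes such as DREAM. The circadian activators BMAL1 and CLOCK bind E-boxes, and *Wee1* and *Cdkn1a* are long known as clock-linked cell cycle genes in mouse liver. Adult β cells divide rarely, with cyclin D2 and CDK4 as their main G1 pair in mouse.

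To show the promoter elements that the members carry, 300-base promoters (250 bases before to 50 after the start, RefSeq, GRCm38, the build the authors call mm10) were searched on both strands for exact letters. Entries matched 31 members. *Ccnd1*, *Ccnd2*, *Ccne2*, *Rb1*, *Mcm4*, *Ccna2*, *Wee1*, *Foxm1* and *Aurkb* had none. A CHR (TTTGAA or TTCGAA) was found in 11 of the 31, or 35.5%, against 19.2% of all 32851 promoters. CCAAT was found in 64.5% of members against 37.4% of all, and CHR with CCAAT in 35.5% against 7.52%. E2F letters (TTTCCCGC, TTTGGCGC, TTTCGCGC or TTTGCCGC) were found in 9 members, or 29.0%, against 2.26% of all promoters. The E-box CACGTG was found in 3 members, or 9.68%, against 7.15%, and the E-prime box CACGTT also in 3, against 4.68%.

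CHR and E2F letters divided by role, whereas CCAAT was found in every role. CCAAT was in 7 of 9 licensing, clamp and nucleotide genes and 5 of 6 mitotic kinase and checkpoint genes. It was in all 3 S, G2 and M cyclin and CDK1 genes with an entry and in both proliferation markers. It was in 2 of 6 inhibitor, pocket protein and E2F genes and in 1 of 5 G1 cyclins and kinases. *Birc5* held none of the elements. All 11 members with a CHR also held CCAAT, and they were 5 of 6 mitotic kinase and checkpoint genes (*Aurka*, *Bub1*, *Bub1b*, *Cdc20* and *Plk1*), both proliferation markers, *Ccnb2*, *Cdk1*, *Mcm2* and *Mcm7*. E2F letters were in 5 of 9 licensing and nucleotide genes (*Cdc6*, *Mcm3*, *Mcm5*, *Mcm6* and *Mcm7*) and in *Cdk1*, *Cdk2*, *E2f2* and *Rbl1*, and in none of the mitotic genes. E-boxes were in *Cdk4*, *Cdk6* and *Tyms*. The RefSeq start of the *Cdk6* entry lies 2408 bases from the GENCODE start used for peaks. Those of *Mcm7*, *E2f1*, *Cdkn2c* and *Cdc6* lie 539, 466, 433 and 350 bases from theirs. The promoters of 8 members are shown because they carry the clearest case of each arrangement or belong to genes whose levels differed between genotypes. Capitals mark every match to any of the 5 elements. Matches can overlap, as 2 E2F matches do in *Mcm6*, and a match describes letters only and is no evidence of binding.
Cdk4 (chr10:127063285-127063584, plus strand, 4 E-boxes): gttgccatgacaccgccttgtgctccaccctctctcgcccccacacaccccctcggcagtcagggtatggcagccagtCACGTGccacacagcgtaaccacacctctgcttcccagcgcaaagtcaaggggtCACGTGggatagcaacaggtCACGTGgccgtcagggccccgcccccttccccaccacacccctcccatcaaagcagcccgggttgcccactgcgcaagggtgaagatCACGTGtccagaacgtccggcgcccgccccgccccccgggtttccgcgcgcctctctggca
Cdk2 (chr10:128705002-128705301, minus strand, E2F and CCAAT): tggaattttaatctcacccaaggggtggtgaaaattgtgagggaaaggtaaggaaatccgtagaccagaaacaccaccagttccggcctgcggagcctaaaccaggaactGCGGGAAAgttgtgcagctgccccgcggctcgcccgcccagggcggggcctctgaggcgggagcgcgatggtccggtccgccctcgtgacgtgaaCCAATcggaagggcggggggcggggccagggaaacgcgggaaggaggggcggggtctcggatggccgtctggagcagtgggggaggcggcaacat
Mcm3 (chr1:20820263-20820562, minus strand, E2F and CCAAT): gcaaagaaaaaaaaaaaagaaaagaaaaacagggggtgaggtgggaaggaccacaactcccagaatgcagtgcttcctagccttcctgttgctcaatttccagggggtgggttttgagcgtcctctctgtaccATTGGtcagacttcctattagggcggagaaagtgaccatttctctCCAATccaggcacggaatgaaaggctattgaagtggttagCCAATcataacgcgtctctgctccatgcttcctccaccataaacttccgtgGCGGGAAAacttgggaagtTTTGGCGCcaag
Mcm6 (chr1:128359656-128359955, minus strand, E2F and CCAAT): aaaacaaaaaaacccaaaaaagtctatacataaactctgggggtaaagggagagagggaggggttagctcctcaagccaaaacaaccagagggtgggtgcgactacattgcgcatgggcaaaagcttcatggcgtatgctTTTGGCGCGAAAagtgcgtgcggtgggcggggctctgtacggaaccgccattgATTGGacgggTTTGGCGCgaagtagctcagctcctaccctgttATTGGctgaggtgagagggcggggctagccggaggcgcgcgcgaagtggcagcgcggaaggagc
Cdk1 (chr10:69352863-69353162, minus strand, E2F, CCAAT and CHR): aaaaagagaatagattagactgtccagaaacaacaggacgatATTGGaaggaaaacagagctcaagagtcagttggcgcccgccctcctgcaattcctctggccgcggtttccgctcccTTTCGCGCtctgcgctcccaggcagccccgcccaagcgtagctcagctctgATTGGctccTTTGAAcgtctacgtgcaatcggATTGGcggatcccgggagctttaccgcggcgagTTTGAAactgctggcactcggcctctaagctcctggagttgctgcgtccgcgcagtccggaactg
Ccnb2 (chr9:70421505-70421804, minus strand, CCAAT, CHR and E-prime box): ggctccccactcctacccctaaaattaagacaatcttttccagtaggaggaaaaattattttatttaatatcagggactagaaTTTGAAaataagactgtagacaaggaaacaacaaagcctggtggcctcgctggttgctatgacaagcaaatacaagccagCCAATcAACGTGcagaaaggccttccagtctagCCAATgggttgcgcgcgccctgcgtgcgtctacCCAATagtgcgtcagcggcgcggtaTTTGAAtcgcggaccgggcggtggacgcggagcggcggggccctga
Cdc20 (chr4:118437294-118437593, minus strand, CCAAT and CHR): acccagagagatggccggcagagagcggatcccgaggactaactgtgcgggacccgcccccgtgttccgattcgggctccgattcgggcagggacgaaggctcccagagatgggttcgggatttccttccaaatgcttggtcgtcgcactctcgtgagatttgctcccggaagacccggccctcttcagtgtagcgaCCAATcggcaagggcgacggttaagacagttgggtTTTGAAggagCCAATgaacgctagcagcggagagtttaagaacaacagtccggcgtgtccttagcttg
Top2a (chr11:99024140-99024439, minus strand, CCAAT and CHR): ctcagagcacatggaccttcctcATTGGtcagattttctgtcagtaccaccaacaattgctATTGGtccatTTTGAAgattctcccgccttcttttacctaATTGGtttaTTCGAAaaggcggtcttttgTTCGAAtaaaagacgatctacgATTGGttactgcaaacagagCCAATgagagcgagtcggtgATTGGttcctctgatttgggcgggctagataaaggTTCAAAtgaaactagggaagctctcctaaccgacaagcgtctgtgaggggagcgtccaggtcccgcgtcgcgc

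*Top2a* held 6 CCAAT boxes and 4 CHR matches, the most of any member for both. *Ccnb2* had 3 CCAAT boxes upstream of a CHR just past its start. *Cdk4*, the main G1 kinase of β cells, carried 4 CACGTG elements and no other element searched.

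Members rose in *Bmal1*-/- cells more often than they fell. Against WT, 17 of the 38 members tested rose at an adjusted p under 0.01 (limma on log2 of TPM + 1, Benjamini-Hochberg over all 15031 genes tested), 2 fell and 19 were not called. Over all genes tested, 18.4% rose and 21% fell. The median log2 fold change of the members was 0.21, against -0.04 for all genes. In bulk RNA, a different share of cells in a phase of the cycle and a different amount of transcript per cell cannot be told apart. Most changes were below the size the study asked for: only *Ccnd2* passed a log2 fold change of 1 in size as well, a rule that 11.8% of all genes met. The number that rose was 10 without *Bmal1*-/- replicate 3 and 11 without WT replicate 2 or WT replicate 3. Called with any single library left out were *Ccnd3*, *Cdk2*, *Cdkn1b*, *Cdkn2c*, *Mcm5*, *Cdc6*, *Ccnb2*, *Wee1*, *Aurkb* and *Bub1b* among those that rose, and *Ccnd2* and *Ccne1*, which fell.

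In *Clock*-/- cells the balance lay the other way. Against WT, 6 members rose (*Ccnd2*, *Cdkn1b*, *Cdkn2c*, *E2f1*, *Ccnb2* and *Birc5*), 11 fell (*Cdkn1a*, *Mcm3*, *Mcm4*, *Mcm7*, *Cdc6*, *Tyms*, *Aurka*, *Aurkb*, *Plk1*, *Cdc20* and *Top2a*) and 21 were not called. Over all genes, 9.5% rose and 14.4% fell, so the share of members that rose, 15.8%, and the share that fell, 28.9%, were both above the table's own. Their median log2 fold change was -0.18, against -0.02 for all genes. *Ccnd2* alone passed a log2 fold change of 1 in size, met by 7.4% of all genes. The number that fell dropped to 5 without WT replicate 1, 6 without WT replicate 2 or 3, and 7 without *Clock*-/- replicate 1 or *Bmal1*-/- replicate 3. *Cdkn1a*, *Mcm4*, *Aurka*, *Plk1* and *Cdc20* fell whichever library was left out, and *Ccnd2*, *Cdkn2c*, *E2f1* and *Ccnb2* rose.

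The knockouts were also compared with each other, a test that does not use the WT libraries as its baseline. In *Bmal1*-/- against *Clock*-/- cells, 22 members rose and 3 fell (*Ccnd2*, *Cdk4* and *Ccne1*), while 22.8% of all genes rose and 21.8% fell. The members' median log2 difference was 0.37, against -0.01 for all genes. With any single library left out, 20 of the 22 kept their call, the others being *Rrm2* and *Aurka*, as did *Ccnd2* and *Ccne1* among those lower in *Bmal1*-/- cells. *Cdk4* lost its call in 1 of the 9 fits. *Ccnd2*, *Cdc6*, *Aurkb* and *Top2a* differed by more than 1 on the log2 scale, as 14.5% of all genes did. With chromosome medians subtracted *Cdc6* differed by 0.91, *Top2a* by 0.81 and *Aurkb* by 0.71, and with the median of the 50 nearest genes subtracted by 0.67, 0.60 and 0.63. Both medians were taken in each library from differences to the WT mean, so these adjusted values do use the WT libraries.

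**Figure D1:**
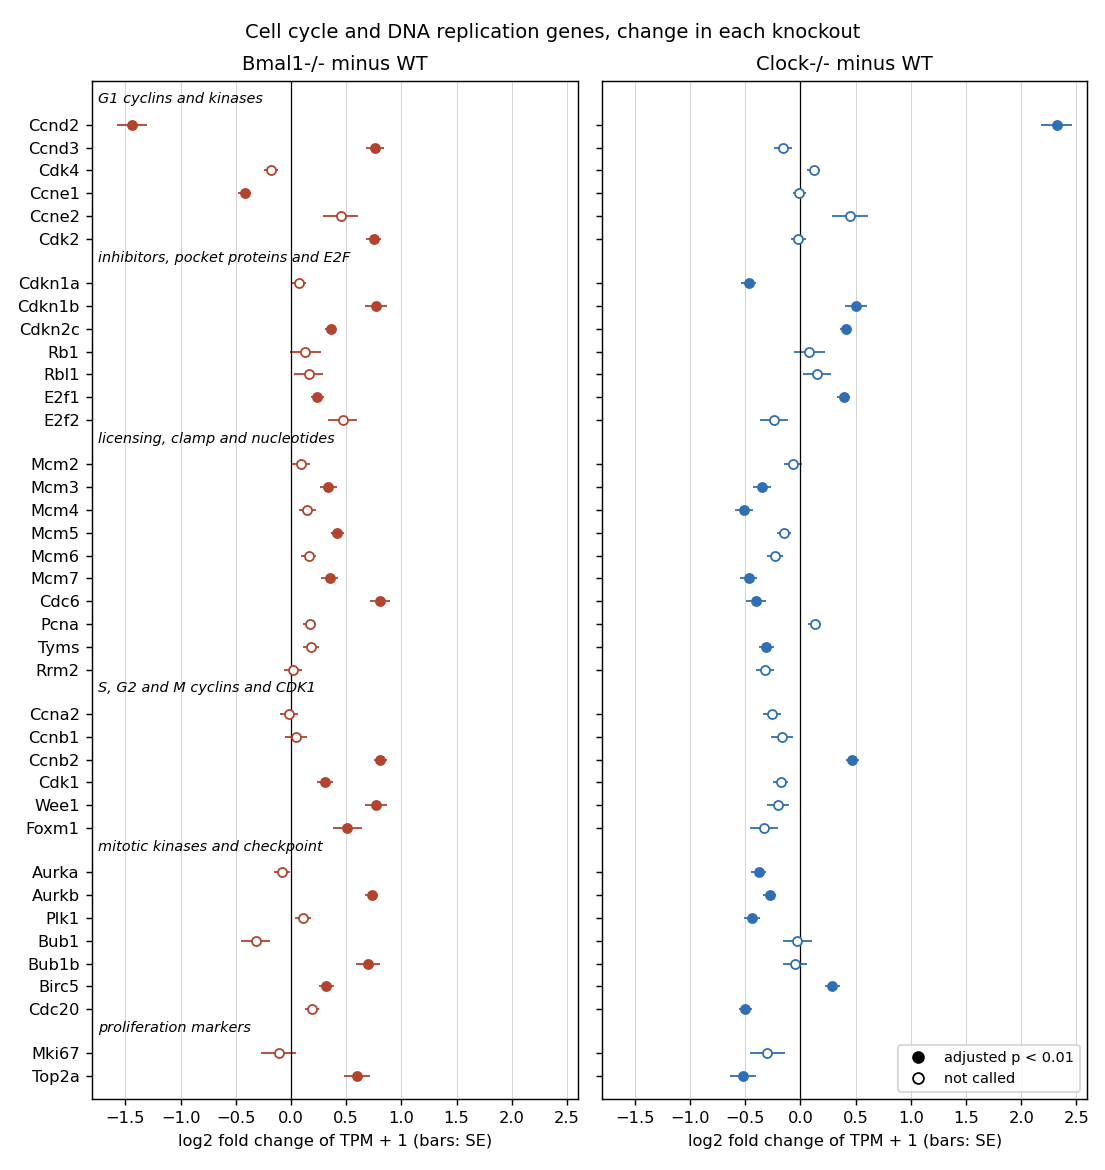
Log2 fold change of TPM + 1 (x axis, bars show the standard error) for the 38 members tested, grouped by role, in *Bmal1*-/- minus WT (left) and *Clock*-/- minus WT (right), each from 3 libraries per genotype. Filled points passed an adjusted p of 0.01, 19 on the left and 17 on the right. *Ccnd2* lies far from the rest at -1.44 on the left and 2.32 on the right.

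Cyclin D2 moved furthest of all members, and in opposite directions. *Ccnd2* (ENSMUSG00000000184, chromosome 6, 127125162 to 127152193) was at 20.7, 15.7 and 20.5 TPM in *Bmal1*-/- libraries, 279, 223 and 306 TPM in *Clock*-/- libraries, and 59.3, 51.1 and 48.0 TPM in WT libraries. Every *Clock*-/- library lay above every WT library, and every *Bmal1*-/- library below. Its log2 change against WT was -1.44 ± 0.14 in *Bmal1*-/- (standard error; adjusted p = 2.47e-05) and 2.32 ± 0.14 in *Clock*-/- cells (adjusted p = 1.77e-06), and the knockouts differed by -3.76 (*Bmal1*-/- minus *Clock*-/-, adjusted p = 4.22e-08). The 50 tested genes next to it had a median change of -0.02 in *Bmal1*-/- and 0.01 in *Clock*-/- cells.

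Its relative cyclin D3 differed between the knockouts. *Ccnd3* was at 31.8, 28.1 and 29.1 TPM in *Bmal1*-/-, 15.4, 14.8 and 15.4 in *Clock*-/- and 15.9, 17.2 and 18.4 in WT libraries. It rose in *Bmal1*-/- cells by 0.76 on the log2 scale (adjusted p = 5.41e-05) and was not called in *Clock*-/- cells, where it was at -0.16 (adjusted p = 0.168). The genes beside *Ccnd3* on chromosome 17 had a median of 0.50 in *Bmal1*-/- cells. With the neighbours' median subtracted in each library, *Ccnd3* was at 0.27 (adjusted p = 0.0274), no longer past the test. The same step put *Ccnd3* at -0.43 in *Clock*-/- cells (adjusted p = 0.00451), past the test, so which knockout carried the call depended on it, while the difference between the knockouts was called either way, at 0.92 and at 0.70 (adjusted p = 1.35e-05 and 0.00012). As a share of summed D2 and D3 transcript level, *Ccnd2* made up 39.4, 35.9 and 41.3% in *Bmal1*-/- libraries, 94.8, 93.8 and 95.2% in *Clock*-/- libraries, and 78.9, 74.9 and 72.4% in WT libraries. *Ccnd2* was below *Ccnd3* in level per length in every *Bmal1*-/- library and above it in every other.

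The kinases of G1 parted in the same cells. *Cdk4* was at 231, 221 and 222 TPM in *Bmal1*-/-, 282, 290 and 264 in *Clock*-/- and 259, 266 and 242 in WT libraries. The *Bmal1*-/- libraries were lowest and the other genotypes overlapped. *Cdk4* was not called against WT in *Bmal1*-/- (log2 fold change -0.18, adjusted p = 0.0296) or in *Clock*-/- cells (0.12, adjusted p = 0.14), and it was lower in *Bmal1*-/- than in *Clock*-/- cells by a log2 difference of -0.31 (adjusted p = 0.00186). Rescaled by median-of-ratios size factors, the difference was again -0.31, at an adjusted p of 0.011.

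*Cdk2*, partner of cyclins E and A, was at 96.3, 101 and 96.8 TPM in *Bmal1*-/-, 59.6, 51.9 and 60.1 in *Clock*-/- and 55.3, 60.5 and 58.7 in WT libraries. It rose in *Bmal1*-/- cells (log2 fold change 0.75, standard error 0.07, adjusted p = 2.47e-05), and *Clock*-/- and WT libraries overlapped. The ratio of *Cdk4* to *Cdk2* was 2.29 ± 0.11 in *Bmal1*-/-, 4.90 ± 0.62 in *Clock*-/- and 4.40 ± 0.28 in WT libraries (SD, n = 3 each). Cyclin E1, from *Ccne1*, fell in *Bmal1*-/- cells to 65.8, 63.1 and 70.7 TPM, against 89.4, 91.9 and 86.3 TPM in WT libraries, a log2 fold change of -0.42 (adjusted p = 0.000331). *Ccne2*, of cyclin E2, passed the test in neither knockout, with a log2 fold change of 0.45 in each.

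**Figure D2:**
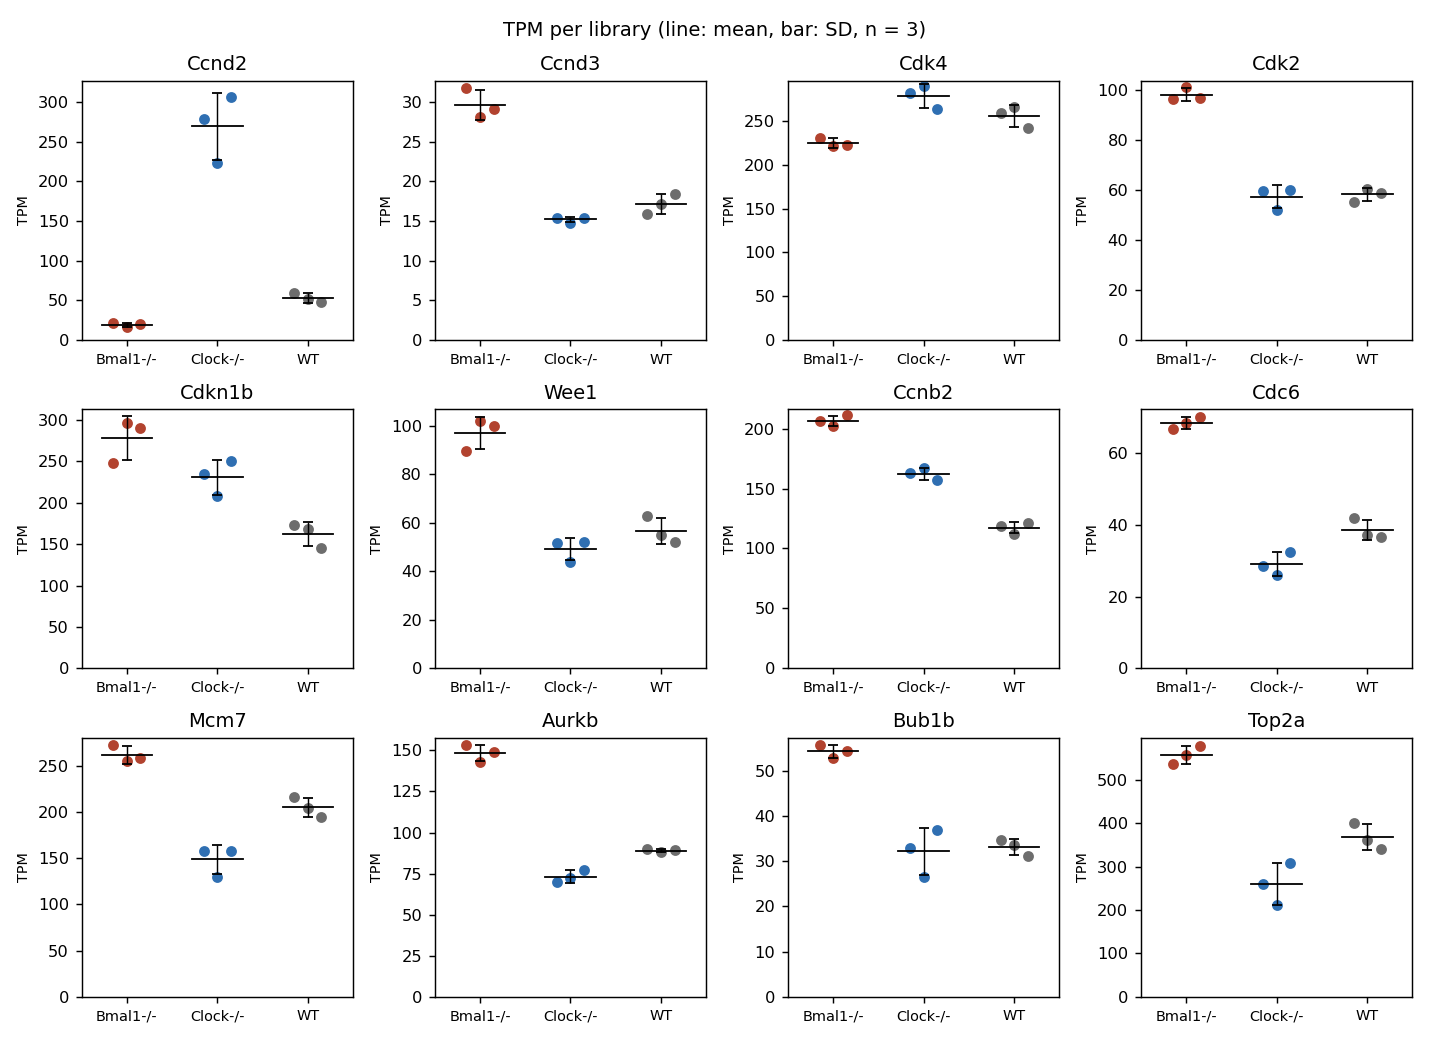
TPM of 12 members in each library (y axes start at 0), with *Bmal1*-/-, *Clock*-/- and WT from left to right in every panel. The line is the mean and the bar the SD of 3 libraries. In *Bmal1*-/- cells *Ccnd2* is lowest of the genotypes, and *Ccnd3*, *Cdk2*, *Wee1*, *Cdc6*, *Aurkb*, *Bub1b* and *Top2a* are highest without overlap.

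Of the 3 CDK inhibitor genes, *Cdkn1b* and *Cdkn2c* rose in both knockouts and *Cdkn1a* did not. *Cdkn1b*, which encodes p27, was at 248, 297 and 290 TPM in *Bmal1*-/-, 235, 208 and 250 in *Clock*-/- and 173, 168 and 146 in WT libraries. It rose on the log2 scale by 0.77 in *Bmal1*-/- cells (standard error 0.10, adjusted p = 0.000128) and by 0.50 in *Clock*-/- cells (standard error 0.10, adjusted p = 0.00294), the second called in 7 of the 9 fits with a library left out. *Cdkn2c*, of the CDK4 and CDK6 inhibitor p18, was the most abundant member, at 1250, 1240 and 1280 TPM in *Bmal1*-/-, 1290, 1280 and 1340 in *Clock*-/- and 979, 979 and 985 in WT libraries. Its log2 fold change was 0.36 in *Bmal1*-/- (adjusted p = 0.000283) and 0.41 in *Clock*-/- cells (adjusted p = 0.000223), and neither knockout overlapped WT.

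*Cdkn1a*, of the p53-induced inhibitor p21, was at 181, 173 and 172 TPM in *Bmal1*-/-, 128, 108 and 125 in *Clock*-/- and 168, 164 and 169 in WT libraries. The *Clock*-/- libraries were lowest and the *Bmal1*-/- libraries lay just above WT. The log2 fold change was 0.07 in *Bmal1*-/- cells (adjusted p = 0.413) and -0.47 in *Clock*-/- cells (adjusted p = 0.000641). *Rb1*, of the retinoblastoma protein, was at 48.8, 59.8 and 56.8 TPM in *Bmal1*-/-, 52.0, 43.9 and 65.8 in *Clock*-/- and 51.9, 53 and 45.8 in WT libraries, so all genotypes overlapped, and the same held for *Rbl1*, of its relative p107. *E2f1*, the activator they restrain, rose by 0.24 in *Bmal1*-/- (adjusted p = 0.00868) and by 0.39 in *Clock*-/- cells (adjusted p = 0.000989), the first called in 2 of the 9 fits with a library left out. *E2f2* was at 33.7 to 35.0 TPM in *Bmal1*-/-, 16.8 to 23.9 in *Clock*-/- and 21.9 to 28.3 in WT libraries, and was called only between the knockouts, with a log2 difference of 0.71 (adjusted p = 0.00111).

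The summed level of the replication licensing genes was highest in *Bmal1*-/- and lowest in *Clock*-/- libraries, an order that not every gene followed. The 10 licensing, clamp and nucleotide genes summed to 2630, 2620 and 2630 TPM in *Bmal1*-/-, 1970, 1780 and 2010 in *Clock*-/- and 2270, 2210 and 2170 in WT libraries. Of the 10, 4 rose in *Bmal1*-/- cells (*Mcm3*, *Mcm5*, *Mcm7* and *Cdc6*) and 5 fell in *Clock*-/- cells (*Mcm3*, *Mcm4*, *Mcm7*, *Cdc6* and *Tyms*), and 8 were higher in *Bmal1*-/- than in *Clock*-/- cells. These were 40, 50 and 80% of the 10, against 18.4, 14.4 and 22.8% of all genes tested. With chromosome medians subtracted, *Mcm3*, *Mcm4*, *Mcm7* and *Tyms* were no longer called in *Clock*-/- cells, at -0.10, -0.06, -0.20 and -0.05. *Cdc6* kept its call there and *Rrm2* was called in addition.

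*Cdc6*, the factor that loads the MCM helicase at origins, was at 66.8, 68.4 and 69.9 TPM in *Bmal1*-/-, 28.6, 26.0 and 32.5 in *Clock*-/- and 41.8, 37.2 and 36.7 in WT libraries. No library of one genotype reached those of another. The log2 fold change was 0.81 in *Bmal1*-/- (standard error 0.09, adjusted p = 5.04e-05) and -0.40 in *Clock*-/- cells (standard error 0.09, adjusted p = 0.00622), the second called in 1 of the 9 fits with a library left out. Between the knockouts the difference was 1.21 (adjusted p = 3.41e-06).

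The 6 subunits of the MCM2 to MCM7 helicase did not move in proportion. *Mcm7* was at 273, 255 and 258 TPM in *Bmal1*-/-, 158, 130 and 158 in *Clock*-/- and 216, 204 and 195 in WT libraries, with a log2 fold change of 0.35 in *Bmal1*-/- (adjusted p = 0.00547) and -0.47 in *Clock*-/- cells (adjusted p = 0.00182). *Mcm3* showed the same order, at 341 to 378 TPM in *Bmal1*-/-, 197 to 239 in *Clock*-/- and 279 to 287 in WT libraries. With a library left out, 4 of the 9 fits called *Mcm7* in *Bmal1*-/- cells, and in each knockout 4 called *Mcm3*. *Mcm4* was at 197, 197 and 203 TPM in *Bmal1*-/-, 128, 111 and 139 in *Clock*-/- and 188, 180 and 172 in WT libraries, and its difference between the knockouts was 0.66 (adjusted p = 8.05e-05), or 0.20 (adjusted p = 0.00684) with chromosome medians subtracted. *Mcm5* was the most abundant subunit and rose in *Bmal1*-/- cells to 515, 475 and 485 TPM, against 375, 360 and 364 TPM in WT libraries. *Mcm2* was at 114, 106 and 107 TPM in *Bmal1*-/-, 100, 87.0 and 106 in *Clock*-/- and 101, 104 and 102 in WT libraries, and was not called in any comparison, though its difference between the knockouts passed with chromosome medians subtracted (0.30, adjusted p = 0.00394). As a share of the summed 6, *Mcm2* made up 6.23 ± 0.103% in *Bmal1*-/-, 8.32 ± 0.167% in *Clock*-/- and 7.16 ± 0.26% in WT libraries, while *Mcm7* made up 15.0 ± 0.2% in *Bmal1*-/-, 12.6 ± 0.404% in *Clock*-/- and 14.3 ± 0.351% in WT libraries (SD, n = 3 each).

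*Pcna*, the sliding clamp, was at 415, 465 and 447 TPM in *Bmal1*-/-, 437, 433 and 420 in *Clock*-/- and 397, 388 and 392 in WT libraries. Both knockouts lay above WT in every library, by 0.17 on the log2 scale in *Bmal1*-/- and 0.13 in *Clock*-/- cells, and neither passed the test (adjusted p = 0.0285 and 0.0979). *Tyms*, of thymidylate synthase, fell in *Clock*-/- cells (log2 fold change -0.31, adjusted p = 0.00475). *Rrm2*, of the ribonucleotide reductase subunit that cycles with S phase, was at 273 to 294 TPM in *Bmal1*-/-, 199 to 246 in *Clock*-/- and 271 to 285 in WT libraries, and was called only between the knockouts, with a log2 difference of 0.33 (adjusted p = 0.00469).

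The B cyclins, which bring CDK1 into mitosis, parted from each other. *Ccnb2* was at 206, 202 and 211 TPM in *Bmal1*-/-, 163, 167 and 157 in *Clock*-/- and 119, 112 and 121 in WT libraries. The genotypes did not overlap, and the log2 fold change was 0.81 in *Bmal1*-/- (standard error 0.06, adjusted p = 2.75e-06) and 0.47 in *Clock*-/- cells (standard error 0.06, adjusted p = 0.000182). With the neighbours' median subtracted, the *Ccnb2* change in *Clock*-/- cells was 0.41 (adjusted p = 0.0182), no longer past the test. *Ccnb1* was at 113 to 124 TPM in *Bmal1*-/-, 85.9 to 115 in *Clock*-/- and 112 to 115 in WT libraries and was not called in any comparison. The *Ccnb1* difference between the knockouts passed with chromosome medians subtracted (0.33, adjusted p = 0.00143), and with the neighbours' median subtracted so did that and the change in *Bmal1*-/- cells (0.48 and 0.28, adjusted p = 0.000234 and 0.00639). The ratio of *Ccnb2* to *Ccnb1* was 1.76 ± 0.0624 in *Bmal1*-/-, 1.63 ± 0.292 in *Clock*-/- and 1.03 ± 0.0432 in WT libraries (SD, n = 3 each). *Ccna2*, of cyclin A2, was at 191 to 224 TPM in *Bmal1*-/-, 168 to 191 in *Clock*-/- and 202 to 226 in WT libraries and passed no test on the values as deposited. Its difference between the knockouts was 0.39 (adjusted p = 0.000192) with chromosome medians subtracted.

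*Wee1*, the kinase that holds CDK1 inactive and a clock-linked gene in mouse liver, rose in *Bmal1*-/- cells. It was at 89.7, 102 and 99.9 TPM in *Bmal1*-/-, 51.9, 43.9 and 52.0 in *Clock*-/- and 62.8, 55.0 and 52.1 in WT libraries. The log2 change against WT was 0.77 in *Bmal1*-/- (standard error 0.10, adjusted p = 0.000111) and -0.20 in *Clock*-/- cells (adjusted p = 0.138), and the difference between the knockouts was 0.97 (adjusted p = 2.28e-05). Its target *Cdk1* also rose in *Bmal1*-/- cells, less, by 0.31 (adjusted p = 0.00374), so the ratio of *Wee1* to *Cdk1* was 0.471 ± 0.0185 in *Bmal1*-/-, 0.338 ± 0.0545 in *Clock*-/- and 0.340 ± 0.0298 in WT libraries (SD, n = 3 each). The *Cdk1* change was 0.28 (adjusted p = 0.0371) with the chromosome median subtracted and 0.35 (adjusted p = 0.0115) under median-of-ratios scaling, and 4 of the 9 fits with a library left out called it. *Foxm1*, an activator of late cell cycle genes, was at 89.5 to 93.8 TPM in *Bmal1*-/-, 40.6 to 61.5 in *Clock*-/- and 59.7 to 67.8 in WT libraries. It rose in *Bmal1*-/- cells by 0.51 (adjusted p = 0.0067), a call kept in 2 of the 9 fits with a library left out.

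**Figure D3:**
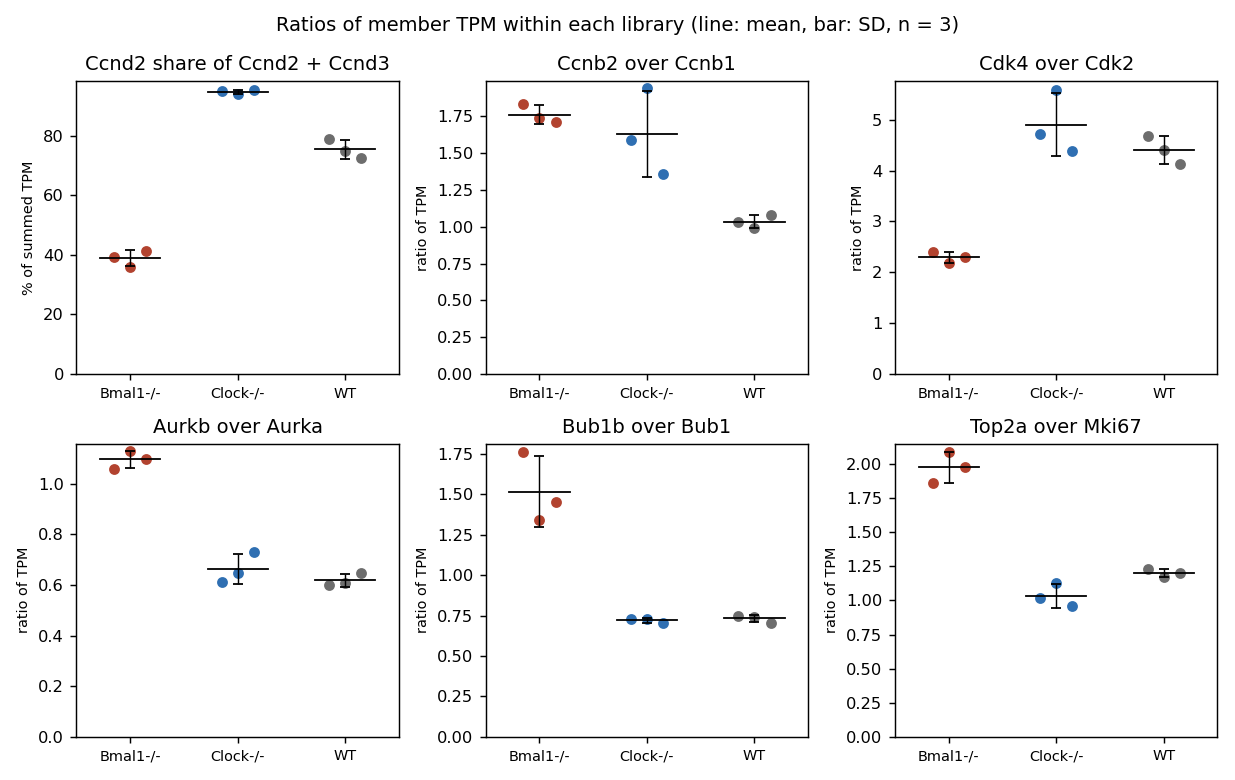
Ratio of the TPM of paired members within each library (top left: share of *Ccnd2* in the sum of *Ccnd2* and *Ccnd3*, in percent), with *Bmal1*-/-, *Clock*-/- and WT from left to right. Lines are means and bars SD of 3 libraries, and y axes start at 0. The *Aurkb* to *Aurka* ratio is 1.10 in *Bmal1*-/- libraries, against 0.664 in *Clock*-/- and 0.619 in WT libraries.

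Of the 7 mitotic kinase and checkpoint genes, *Aurkb*, *Bub1b* and *Birc5* rose in *Bmal1*-/- cells, and *Aurka*, *Aurkb*, *Plk1* and *Cdc20* fell in *Clock*-/- cells. These were 42.9% and 57.1% of the 7, against 18.4% and 14.4% of all genes tested. *Aurkb*, the catalytic subunit of the chromosomal passenger complex, was at 153, 143 and 149 TPM in *Bmal1*-/-, 69.7, 72.3 and 77.3 in *Clock*-/- and 89.7, 87.9 and 89.3 in WT libraries. The genotypes did not overlap, and the log2 fold change was 0.73 in *Bmal1*-/- (standard error 0.06, adjusted p = 7.62e-06) and -0.28 in *Clock*-/- cells (standard error 0.06, adjusted p = 0.00494), the second called in 4 of the 9 fits with a library left out. *Aurka*, the spindle pole kinase, was at 127 to 144 TPM in *Bmal1*-/-, 106 to 114 in *Clock*-/- and 138 to 150 in WT libraries, and in *Clock*-/- cells it fell by 0.38 (adjusted p = 0.00153). *Plk1* and *Cdc20*, the polo-like kinase and the activator of the anaphase-promoting complex, fell by 0.44 and 0.50 in *Clock*-/- cells (adjusted p = 0.00129 and 0.000279), and were at 0.11 and 0.19 without a call in *Bmal1*-/- cells. *Cdc20*, the most abundant of this group, was at 457, 389 and 416 TPM in *Bmal1*-/-, 256, 267 and 261 in *Clock*-/- and 370, 371 and 365 in WT libraries.

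*Bub1b*, of the spindle checkpoint protein BUBR1, was at 55.8, 52.9 and 54.3 TPM in *Bmal1*-/-, 33.0, 26.6 and 37.0 in *Clock*-/- and 34.7, 33.6 and 31.2 in WT libraries. Only the *Bmal1*-/- libraries stood apart (log2 fold change 0.70, standard error 0.11, adjusted p = 0.000471). Its partner kinase *Bub1* was at 31.7 to 39.6 TPM in *Bmal1*-/-, 36.5 to 52.7 in *Clock*-/- and 44.2 to 46.3 in WT libraries and was not called. The ratio of *Bub1b* to *Bub1* was 1.52 ± 0.218 in *Bmal1*-/-, 0.720 ± 0.015 in *Clock*-/- and 0.732 ± 0.0225 in WT libraries (SD, n = 3 each). *Birc5*, of survivin, another passenger subunit, rose by 0.32 in *Bmal1*-/- (adjusted p = 0.00245) and by 0.29 in *Clock*-/- cells (adjusted p = 0.00653). In *Bmal1*-/- cells the change was -0.04 (adjusted p = 0.756) once the median of chromosome 11 was subtracted, and in *Clock*-/- cells the call was kept in 1 of the 9 fits with a library left out.

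The proliferation markers did not move as a pair. *Mki67*, of the Ki-67 antigen, was at 289, 267 and 293 TPM in *Bmal1*-/-, 255, 186 and 323 in *Clock*-/- and 326, 309 and 284 in WT libraries. *Clock*-/- replicates spread over the whole range, and the log2 fold change was -0.11 in *Bmal1*-/- (adjusted p = 0.575) and -0.30 in *Clock*-/- cells (adjusted p = 0.172). *Top2a*, of topoisomerase II alpha, was at 537, 558 and 579 TPM in *Bmal1*-/-, 260, 211 and 309 in *Clock*-/- and 401, 363 and 341 in WT libraries. Here the genotypes did not overlap, and the log2 fold change was 0.60 in *Bmal1*-/- (standard error 0.12, adjusted p = 0.00227) and -0.52 in *Clock*-/- cells (standard error 0.12, adjusted p = 0.00839). The *Bmal1*-/- change was 0.24 (adjusted p = 0.0406) with the chromosome median subtracted, and the *Clock*-/- call was kept in 1 of the 9 fits with a library left out. The ratio of *Top2a* to *Mki67* was 1.98 ± 0.115 in *Bmal1*-/-, 1.04 ± 0.0876 in *Clock*-/- and 1.20 ± 0.03 in WT libraries (SD, n = 3 each).

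Position on the chromosome moved with several of these results. In *Bmal1*-/- cells the 1201 genes tested on chromosome 11 had a median log2 fold change of 0.35 and those on chromosome 1 of -0.35, and in *Clock*-/- cells the medians were -0.46 on chromosome 16, -0.26 on chromosome 5 and -0.25 on chromosome 1. On chromosome 11 lie 4 members, *Top2a*, *Cdc6*, *Aurkb* and *Birc5*. With each chromosome's median subtracted, 14 of the 17 members that rose in *Bmal1*-/- cells were still called, all but *Birc5*, *Top2a* and *Cdk1*, the last at 0.28 against 0.31 before, and *E2f2*, *Mcm6* and *Tyms* were called in addition. *Cdc6* then stood at 0.46 (adjusted p = 0.000154) and *Aurkb* at 0.38 (adjusted p = 0.000618). Of the 11 that fell in *Clock*-/- cells, 7 were still called. *Mcm3*, *Mcm4*, *Mcm7* and *Tyms*, on chromosomes 1, 16 and 5, were not, at -0.10, -0.06, -0.20 and -0.05, and *Ccna2*, *Foxm1* and *Rrm2* were called in addition. Of the 6 that rose in *Clock*-/- cells, 5 were still called, all but *Birc5*. All 22 members higher in *Bmal1*-/- than in *Clock*-/- cells, and the 3 that were lower, kept their call with chromosome medians subtracted, and *Ccna2*, *Ccnb1*, *Cdkn1b* and *Mcm2* were called higher in addition, making 26.

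With the median of the 50 nearest tested genes subtracted instead, 12 of the 17 and 6 of the 11 were still called. Called in addition were *Ccna2*, *Ccnb1*, *Ccne2*, *Cdkn1a*, *E2f2* and *Mcm6*, which rose in *Bmal1*-/- cells, and *Ccna2*, *Ccnd3* and *Rrm2*, which fell in *Clock*-/- cells, for totals of 18 and 9. *Mcm3* and *Mcm6* stood further up in *Bmal1*-/- cells, at 0.82 and 0.58 (adjusted p = 8.61e-05 and 5.87e-05), where their neighbours on chromosome 1 had medians of -0.46 and -0.44. *Aurka* in *Clock*-/- cells was at -0.04 (adjusted p = 0.728), its neighbours having a median of -0.37. Of the 6 that rose in *Clock*-/- cells, 4 were still called, all but *Birc5* and *Ccnb2*. The rises that lost their call in *Bmal1*-/- cells were *Birc5*, *Ccnd3*, *Cdk1*, *E2f1* and *Top2a*. *Ccnd2*, *Cdk2*, *Wee1*, *Bub1b* and *Ccnb2* kept their calls in *Bmal1*-/- cells, at -1.40, 0.47, 0.87, 0.64 and 0.95. *Cdc6* and *Aurkb* kept theirs at 0.32 and 0.34, against 0.81 and 0.73 before.

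**Figure D4:**
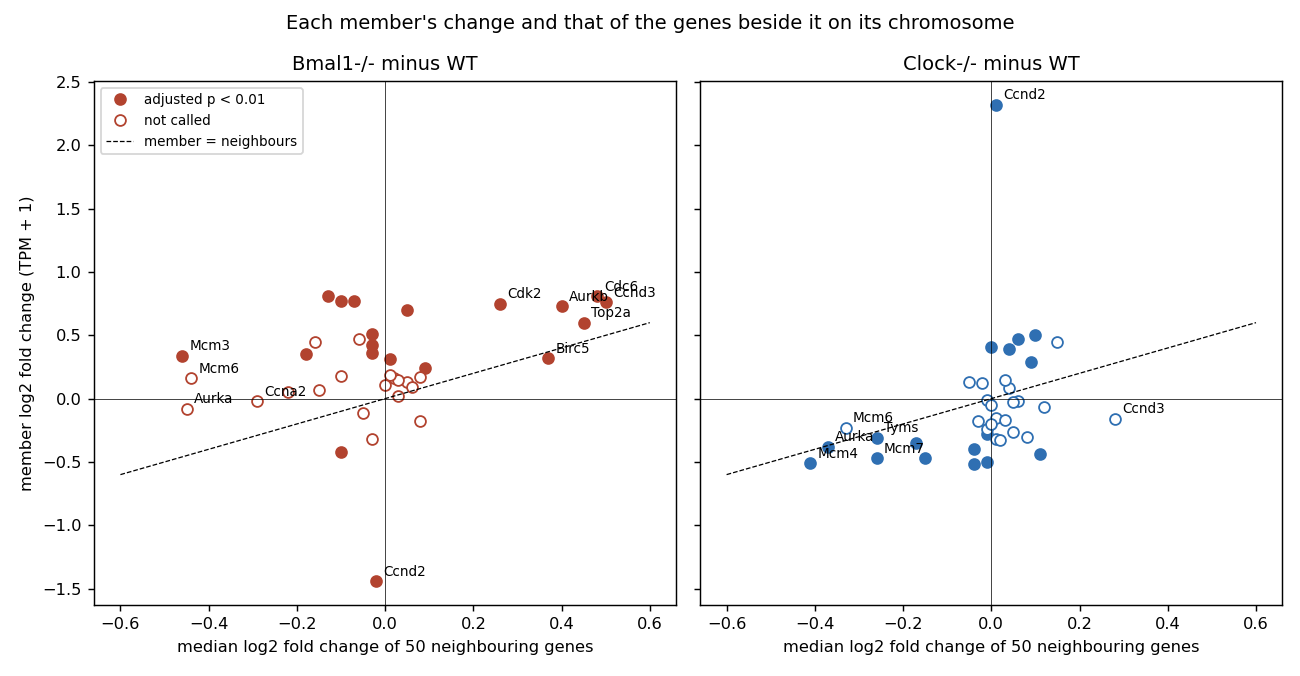
Log2 fold change of each of the 38 members (y axis) against the median log2 fold change of the 50 tested genes nearest to it on its chromosome (x axis), for *Bmal1*-/- minus WT (left) and *Clock*-/- minus WT (right). Filled points passed an adjusted p of 0.01, and points on the dashed line moved as much as their neighbours. *Ccnd2* has neighbours near 0 in both panels, whereas *Birc5* on the left and *Aurka* and *Mcm4* on the right lie near the line.

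Other genes of the same machinery were counted from wider lists. Of 41 genes of origin firing and the replication fork tested, 12 rose and 6 fell in *Bmal1*-/- cells, and 3 rose and 11 fell in *Clock*-/- cells. *Rpa1*, a subunit of the single-strand binding protein RPA, rose in *Bmal1*-/- cells to 284 ± 3.53 TPM, against 158 ± 5.9 in WT (SD, n = 3 each), and *Gins3*, of the GINS complex, to 62.1 ± 1.2 against 36.0 ± 1.39 TPM. The *Rpa1* change was 0.84 on the log2 scale, and 0.48 with the median of chromosome 11 subtracted. The origin recognition subunits *Orc2* and *Orc3* fell there, with log2 fold changes of -0.92 and -0.79 (adjusted p = 4.1e-05 and 0.000588), and *Orc2* was at -0.57 with the median of chromosome 1 subtracted. In *Clock*-/- cells *Cdc45*, a part of the active helicase, fell to 50.1 ± 3.09 TPM, against 99.6 ± 3.05 in WT (SD, n = 3 each), a log2 fold change of -0.98 (adjusted p = 3.97e-06) that was -0.53 (adjusted p = 0.000237) with the median of chromosome 16 subtracted. *Orc6* rose in *Clock*-/- cells by 0.84 (adjusted p = 1.79e-05).

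Among 40 genes of mitosis and cytokinesis, 9 rose and 6 fell in *Bmal1*-/- cells, and 1 rose and 13 fell in *Clock*-/- cells. *Pttg1*, of securin, rose in *Bmal1*-/- cells to 124 ± 7.34 TPM, against 58.7 ± 2.26 in WT (SD, n = 3 each). *Smc4*, a condensin subunit, and *Ube2c*, the ubiquitin-conjugating enzyme of the anaphase-promoting complex, fell there with log2 fold changes of -0.97 and -0.71 (adjusted p = 7.84e-05 and 1.88e-05). In *Clock*-/- cells the centrosomal kinase *Nek2* fell to 123 ± 8.78 TPM, against 289 ± 14.9 in WT (SD, n = 3 each), and the kinetochore gene *Spc25* was the 1 that rose (log2 fold change 0.68, adjusted p = 0.000514). With chromosome medians subtracted, *Pttg1* was at 0.71, against 1.06 before, and *Nek2* at -0.97, against -1.23. *Smc4*, *Ube2c* and *Spc25* were then at -0.79, -0.66 and 0.70. Of the replication and mitosis lists, 29.3% and 22.5% rose in *Bmal1*-/- cells, against 18.4% of all genes, the second share being near it. The shares that fell there were 14.6% and 15%, against 21%. In *Clock*-/- cells 26.8% and 32.5% fell, against 14.4% of all genes, and 7.32% and 2.5% rose, against 9.5%.

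Of 16 further inhibitors, pocket proteins, E2F factors and members of DREAM, a rise passed the test in *Bmal1*-/- cells for 3 and a fall for 2, and in *Clock*-/- cells a fall for 4. The 18.8% that rose and 12.5% that fell in *Bmal1*-/- cells stood against 18.4% and 21% of all genes, and the 25% that fell in *Clock*-/- cells against 14.4%. *Tfdp2*, a dimer partner of E2F, rose in *Bmal1*-/- cells to 24.5 ± 1.05 TPM, against 6.64 ± 1.04 in WT (SD, n = 3 each), and *Rbl2*, of the DREAM pocket protein p130, rose by 0.65 (adjusted p = 0.00245). Of 12 genes of p53 and its targets, 2 rose (16.7%) and 5 fell (41.7%) in *Bmal1*-/- cells, and 5 fell (41.7%) in *Clock*-/- cells. *Trp53* itself rose in *Bmal1*-/- cells by 0.59 (adjusted p = 0.000153), and by 0.23 (adjusted p = 0.0101), no longer past the test, with the median of chromosome 11 subtracted. The p53 target *Bbc3* rose in *Bmal1*-/- cells to 19.2 ± 0.797 TPM, against 9.5 ± 0.591 in WT (SD, n = 3 each). Its log2 fold change was 0.95 (adjusted p = 2.85e-05), and 0.89 with the chromosome median subtracted. Another target, *Phlda3*, fell in both knockouts, to 0.112 ± 0.0256 TPM in *Bmal1*-/- and 0.614 ± 0.182 in *Clock*-/- cells, against 5.42 ± 0.812 in WT (SD, n = 3 each). Of 11 regulators of β-cell proliferation, 3 rose (27.3%) and 1 fell (9.09%) in *Bmal1*-/- cells and 4 fell (36.4%) in *Clock*-/- cells. *Men1*, of the tumour suppressor menin, and *Prlr*, the prolactin receptor, each rose in *Bmal1*-/- cells by 0.70 (adjusted p = 6.38e-05 and 0.00573), and *Myc* fell in *Clock*-/- cells by 0.86 (adjusted p = 0.000184). With chromosome medians subtracted, *Men1*, *Prlr* and *Myc* were at 0.71, 0.95 and -0.58.

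THRAP3 peaks lay at many member promoters. A peak within 1000 bases of the annotated start was found for 25 and 22 of the 39 members in the 2 *Bmal1*-/- lists, and for 3 and 17 in the 2 WT lists. These were 64.1, 56.4, 7.69 and 43.6% of members, against 23.6, 19.6, 0.917 and 9.12% of all 20499 genes with a position. Among the 3632 genes with a mean level of at least 50 TPM, the shares were 42.0, 34.3, 1.73 and 16.2%, and among the 32 members at that level 71.9, 65.6, 9.38 and 53.1%. The lists held 12949, 12226, 808 and 6128 peaks, and the approximate share of tags in peaks was 1.86, 1.67, 0.11 and 0.76%, so a peak missing from the WT lists cannot be told apart from a weaker immunoprecipitation.

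Peaks were found at most members. In all, 31 of the 39 members, or 79.5%, had a peak in at least 1 list, against 33.3% of all genes, and 90.6% of members at 50 TPM or more against 58.0% of genes at that level. All 6 S, G2 and M cyclin and CDK1 genes, 6 of 7 mitotic kinase and checkpoint genes and both proliferation markers had one, as did 8 of 10 licensing, clamp and nucleotide genes, 5 of 7 inhibitor, pocket protein and E2F genes and 4 of 7 G1 cyclins and kinases. *Ccna2* and *Plk1* had a peak in all 4 lists, as did 0.468% of all genes. At *Plk1* the strongest peak held 28.3 and 23.4 normalized tags (scaled by the authors to a common library size) in the *Bmal1*-/- lists and 17.9 and 21.7 in the WT lists, with centres within 72 bases of the start. *Top2a* had 46.3 and 36.1 in the *Bmal1*-/- lists and 27.9 in the second WT list, and *Cdc20* had 47.1, 32.8 and 30.3 in the same lists. These peaks overlap the promoters of both genes printed above, with centres within 86 bases of the start. *Wee1* had 30.6 and 29.4 normalized tags in the *Bmal1*-/- lists and 19.4 in the second WT list.

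*Cdkn2c* had 42.4 and 46.8 normalized tags in the *Bmal1*-/- lists, 466 and 441 bases into the gene from its GENCODE start, and no peak in either WT list. The RefSeq start of its promoter entry lies 433 bases into the gene by the same measure, close to these peaks. In all, 9 members had a peak in both *Bmal1*-/- lists and in neither WT list (23.1%, against 9.03% of all genes). Among genes at 50 TPM or more the gap was narrower: 8 of the 32 members at that level had this pattern, against 16.3% of genes. No list held a peak at *Ccnd2*, *Ccnd3*, *Cdk6*, *Cdkn1a*, *Rbl1*, *Mcm2*, *Cdc6* or *Bub1*. A peak in both *Bmal1*-/- lists lay at 48.7% of members, against 12.8% of all genes, and at 56.2% against 23.2% at 50 TPM or more. Read beside the changes in level, 8 of the 17 members that rose in *Bmal1*-/- cells had such peaks, as did 11 of the 19 not called. *Ccnd2* and *Ccne1*, which fell, did not.

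**Figure D5:**
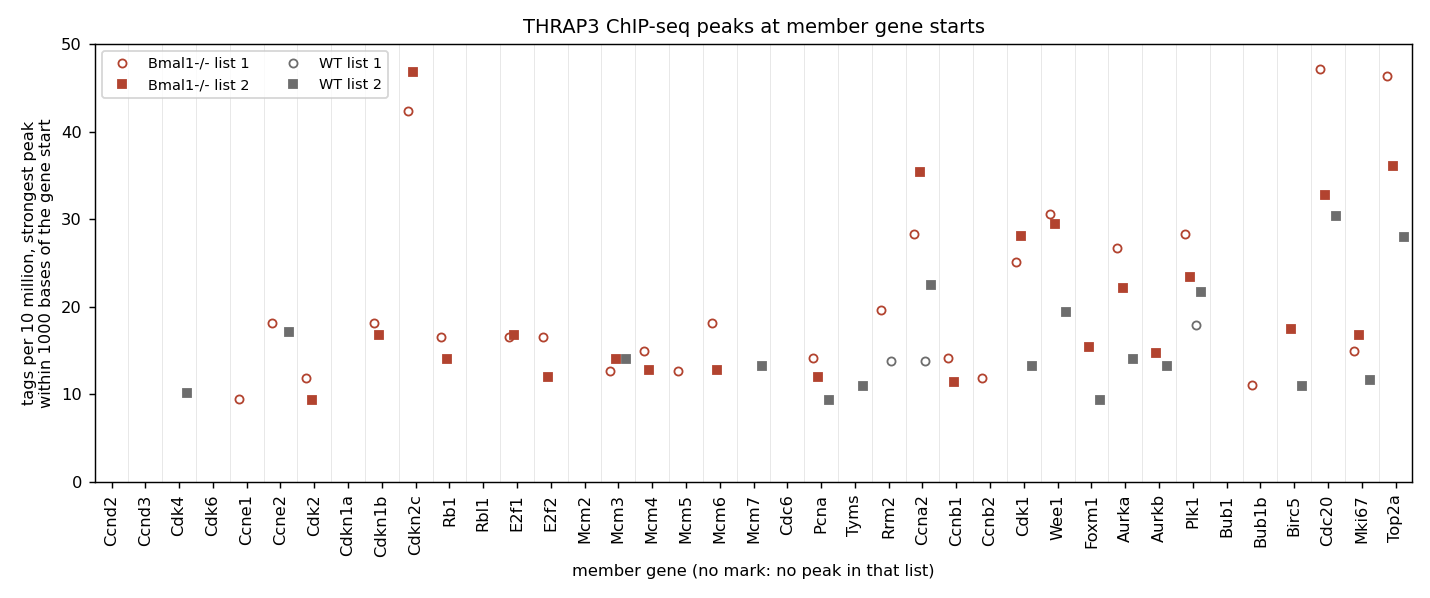
Height of the strongest THRAP3 peak within 1000 bases of each member's start (y axis, normalized tags), for the *Bmal1*-/- lists 1 and 2 and the WT lists 1 and 2, with members on the x axis in order of role. No mark means no peak in that list. *Cdkn2c*, *Cdc20* and *Top2a* have the tallest peaks, and WT list 1, with 808 peaks in all, marks only *Rrm2*, *Ccna2* and *Plk1*.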

How the data were processed

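Poly(A) RNA of 3 wells per genotype was sequenced with paired ends from a strand-specific kit. Per the paper and the submitters' processing notes, the authors aligned reads to mm10 with STAR 2.5.0, counted exons of GENCODE genes with featureCounts 1.5.3, and deposited TPM for 20599 genes. Whether counting used strand is not given in the sources used here. TPM has the same sum in each library and keeps no read depth, so depth and counting intervals are unknown. For ChIP-seq the authors aligned with Bowtie2 2.2.4 and called peaks with HOMER on each immunoprecipitation against its genotype's input. The deposited peak lists give, per the file headers, a normalized tag count per peak (signal), a peak score and a fold ratio over input. The authors' comparison tables, which hold fold changes and p-values, were not used.

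Gene names and starts came from GENCODE vM21 (GRCm38) by Ensembl ID. Values were tested as log2(TPM + 1) by limma 3.58.1 under R 4.3.3 (eBayes with a mean trend) over all 9 libraries together, for genes at 1 TPM or more in at least 3 libraries, with Benjamini-Hochberg adjustment over the 15031 genes tested. Fold changes on this scale understate those of low genes. "Rose" and "fell" mean an adjusted p under 0.01. Peaks and motifs were counted without a test. The computations were tested on simulated data. Alternatives were the pseudocount, the filter, the scaling, chromosome medians, the samples in the fit, a replicate block, each library left out, the window and strength of peaks, and shorter E2F letters. Chromosome and neighbour medians were subtracted library by library, each the median over those genes of the difference from the WT mean. The neighbour median and the background of genes at 50 TPM were added after seeing the data.

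The members and lists were chosen with earlier results of these data known. Members were given in full where called against WT in either knockout with a change of at least 1.5-fold, or where they were *Mki67*, *Top2a*, *Ccnd2*, *Cdk4*, *Cdkn1a*, *Cdkn1b*, *Wee1*, *Rb1*, *Pcna* or *Mcm2*, and others by range or in full. From each wider list, up to 2 of the largest called changes in each direction at a mean of at least 5 TPM were eligible to be named. The replicate numbers did not pair the libraries, so no block was used.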

Additional observations from a re-analysis of the deposited data

Results flagged for a closer look

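In 6 members the change against WT passed the test in opposite directions in the knockouts, and the direct difference between *Bmal1*-/- and *Clock*-/- cells passed as well (limma, adjusted over all genes tested). The log2 difference, *Bmal1*-/- minus *Clock*-/-, was -3.76 for *Ccnd2*, which was lower in *Bmal1*-/- cells. It was 1.21 for *Cdc6*, 1.12 for *Top2a*, 1.01 for *Aurkb*, 0.82 for *Mcm7* and 0.70 for *Mcm3*, which were higher there. *Cdc6*, *Top2a* and *Aurkb* lie on chromosome 11, where all tested genes had a median difference of 0.29 between the knockouts, and their differences were 0.91, 0.81 and 0.71 with chromosome medians subtracted. All 6 differences passed the test then, but 1 side of the opposite changes did not for *Mcm3* and *Mcm7* in *Clock*-/- cells (-0.10 and -0.20, adjusted p = 0.307 and 0.0276) and *Top2a* in *Bmal1*-/- cells (0.24, adjusted p = 0.0406). With a library left out, the fall in *Clock*-/- cells was called in 1 of the 9 fits for *Cdc6* and *Top2a* and in 4 for *Aurkb* and *Mcm3*, and the rise in *Bmal1*-/- cells in 4 for *Mcm3* and *Mcm7*. Each knockout was 1 clone, so differences between clones cannot be told apart from these.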

How the results depend on the processing

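Of the 6 counts of members called, those of members that rose in *Bmal1*-/- cells and fell in *Clock*-/- cells moved by over 1.5 times. With a library left out, 10 to 18 members rose in *Bmal1*-/- cells against 17 with all libraries, and 5 to 12 fell in *Clock*-/- cells against 11. Over all genes, 840 to 1500 rose and 1274 to 2654 fell in *Clock*-/- cells with a library left out, against 1428 and 2162. Fitted with only the 2 groups compared, 6 fell in *Clock*-/- cells and 18 rose in *Bmal1*-/- cells. Over all genes, that fit called fewer in *Clock*-/- cells, where 1031 rose and 1559 fell. It called more in *Bmal1*-/- cells, where 3471 rose and 3665 fell, against 2773 and 3153 with all 9 libraries. The *Clock*-/- calls thus depended on fitting all libraries together. With the replicate number as a block, 7 fell in *Clock*-/- cells and 14 rose in *Bmal1*-/- cells. Libraries with the same number did not deviate together (r of -0.208 to 0.0742 over 9 pairs, against -0.163 to 0.212 over 18 others), and *Clock*-/- replicate 2 deviated most like WT replicate 3, so the block has no basis in the design. Subtracting the chromosome median reversed *Birc5* in *Bmal1*-/- cells, at -0.04 (adjusted p = 0.756), and subtracting the neighbours' median reversed *Ccna2* there, at 0.28 (adjusted p = 0.00171, against -0.02 as reported). The cause was not tested. Counting only peaks found in both lists left 2 members with a THRAP3 peak in WT cells, against 17 in the second list, the first list being short. Among values of single members, 934 of 1026 kept their direction and side of the threshold with a library left out, and 837 of 912 under other settings. Precision rests on 3 wells per genotype, each knockout being 1 clone, and depth is unknown.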
